A study of Mus musculus with 12 samples.

Results

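The LPS response of splenic B cells with both Ebf1 alleles floxed is described here from 6 of the 12 arrays of the series: 3 of LPS-stimulated fl/fl cells and 3 of resting fl/fl cells, chosen by genotype and stimulation as labelled. All groups were C57BL/6 spleen B cells from mice carrying RERTCre, a tamoxifen-inducible Cre, with Ebf1 floxed on both alleles (Ebf1fl/flRERTCre) or on 1 (Ebf1+/flRERTCre, the heterozygote control). Every mouse, controls included, was given 3 mg of tamoxifen-citrate on 4 days and was killed on day 10. Cells were sorted as B220+AA4.1- or as B220+AA4.1-CD21lo, without a statement of which samples passed which gate, and since Cr2 encodes CD21, its level can follow from the gate alone. Sorted cells were left untreated or stimulated with LPS, of unstated dose and time, and the deletion of Ebf1 was not measured. No group is labelled as cultured without LPS. Changes given below as after LPS can therefore include effects of culture, which cannot be told apart from those of LPS. The labels name triplicates without tying them to separate animals, so a p-value here reflects only how these samples scatter, which may be technical.

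Lipopolysaccharide (LPS) is a cell wall component of Gram-negative bacteria. It is transferred by CD14 to the receptor TLR4 with its partner MD-2 (Ly96), and signals through the adaptors MyD88 and TRIF to NF-kB, MAP kinases and interferon regulatory factors. In mature B cells, which also carry the related receptor RP105 (Cd180), LPS acts as a mitogen: resting cells leave quiescence, enlarge, raise ribosome and metabolite production, divide and can become antibody-secreting plasmablasts. Ebf1, with Pax5 and E2A, is a transcription factor of the B lineage program, so the question is what this activation looks like in B cells of fl/fl mice.

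Each array had 43379 non-control spots, and levels are given on a log2 scale on which the array's 75th percentile of signal is 0 and 1 unit is a 2-fold difference. A single array, replicate 2 of the LPS fl/fl group, differed from the rest: the scanner called 83.2% of spots there brighter than background, where the other 11 arrays had 54.4% to 61.4%, and the median signal of 93.0 compared with 35.9 at most elsewhere, so that dim probes read high on it. Correlations between replicates of a group over all probes tested were 0.969 to 0.988, and the lowest were those of this array. All 10 B cell markers, among them Ms4a1 and Pax5, were above background on all 6 fl/fl arrays. Scaling is within arrays, so every difference is relative to the other RNAs of the same cells, and in bulk samples fewer cells of a type and less RNA per cell cannot be told apart.

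A large share of the measured transcriptome differed between LPS-stimulated and resting fl/fl cells. Of 17134 genes tested, 5121 were higher and 4400 lower after LPS at an adjusted p under 0.05 (limma, Benjamini-Hochberg over all genes, n = 3 and 3 arrays), which is 55.6% of all genes in either direction, 29.9% higher and 25.7% lower. Among these, 2837 rose and 2437 fell more than 2-fold, 941 rose and 875 fell more than 4-fold, and 97 rose and 106 fell more than 16-fold. By detection, 490 of the genes that rose were above background on no resting array, and 67 of those that fell on no LPS array. These 2 counts are not comparable, since LPS replicate 2 had 83.2% of spots above background. That makes absence from every LPS array harder to meet. The 3 LPS values lay entirely above or below the 3 resting values for 62.1% of all genes. Without LPS replicate 2 the counts were 4643 higher and 4529 lower, and 8543 of the 9521 calls held with the same sign (89.7%). The arrays lay on 3 slides, with fl/fl arrays of both conditions on slides 2 and 3, and the change had the same sign within slide 2 for 99.7% and within slide 3 for 99.99% of the genes called. Since genes were called on these same arrays and 5038 of the 5121 higher and 4284 of the 4400 lower had groups that do not overlap, this agreement is largely set by the call and is no test of the slide. The number of calls fell to 5983 (34.9%) with scaling by the array median, and was 8651 of 27634 genes (31.3%) without a filter on dim probes. The share of calls that were higher, 53.8%, depended on scaling: it was 47.4% with quantile normalization, 47.6% with the deposited values, 38.2% with scaling by the array median and 39.0% with normexp background correction. These moved the median difference of all genes from 0.06 to −0.11, −0.11, −0.22 and −0.23, so small differences are read below against that shift. Counts of list members below are likewise to be read against the shares of all genes, 29.9% higher and 25.7% lower.

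The gene that rose most was Phlda3, a p53-induced repressor of Akt signalling, which read −2.11, −3.50 and −2.97 on the resting arrays and 5.94, 5.80 and 6.07 on the LPS arrays, a 445-fold difference (log2 8.80, standard error 0.34, adjusted p 6.9e-08). Cdkn1a, which encodes the cyclin-dependent kinase inhibitor p21, came second, at −4.55, −4.99 and −4.81 resting and 3.20, 3.33 and 3.12 after LPS (256-fold, log2 8.0, standard error 0.28, adjusted p 4.56e-08). For both genes every LPS value was far above every resting value, and the resting values of Phlda3 were more spread than those of Cdkn1a. Psrc1, a spindle protein gene, rose 184-fold (log2 7.52). Il2ra, the alpha chain of the interleukin-2 receptor, was above background on no resting array (−4.88, −5.69 and −5.35) and read 2.41, 2.17 and 2.37 after LPS, so its rise is given as a lower bound of at least 183-fold (adjusted p 5.3e-08). In the same way Gtse1, a p53 regulator of the cell cycle, rose at least 63.9-fold, Inka2, an inhibitor of the kinase PAK4, at least 55.7-fold, Acod1, which makes itaconate, at least 51.1-fold, the uncharacterised 1700007K13Rik at least 43.6-fold, Lad1, an anchoring filament protein, at least 40.2-fold, and the secreted ligand gene Wnt10b at least 38.2-fold.

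The largest fall was in Jhy, a gene of ciliated cells, at 2.84, 2.72 and 2.98 resting and −4.58, −4.09 and −7.71 after LPS (log2 −8.30, standard error 0.75, adjusted p 8.14e-06), with 2 of 3 LPS arrays above background. Klk1b24, a kallikrein, varied between resting arrays (−0.30, 3.21 and 1.11) and was above background on no LPS array, at least 136-fold lower. C1qc, a chain of complement C1q made by macrophages, was likewise lost from all 3 LPS arrays, at least 95.3-fold lower. Ngfr, the low-affinity neurotrophin receptor, fell by 6.54 on the log2 scale, Srpk3, an SR protein kinase, by 6.40, BC011467 by 6.32, Fry by 6.17, Fos by 6.11, Cyp4f18, a leukotriene hydroxylase, by 5.95 and Serpinb1a, an inhibitor of neutrophil proteases, by 5.94. Of these, BC011467 and Fry were above background on 1 of 3 LPS arrays. Serpinb1a, with small errors, read 5.80, 5.61 and 5.71 resting and −0.46, 0.12 and −0.37 after LPS (standard error 0.16, adjusted p 1.32e-08).

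**Figure D1:**
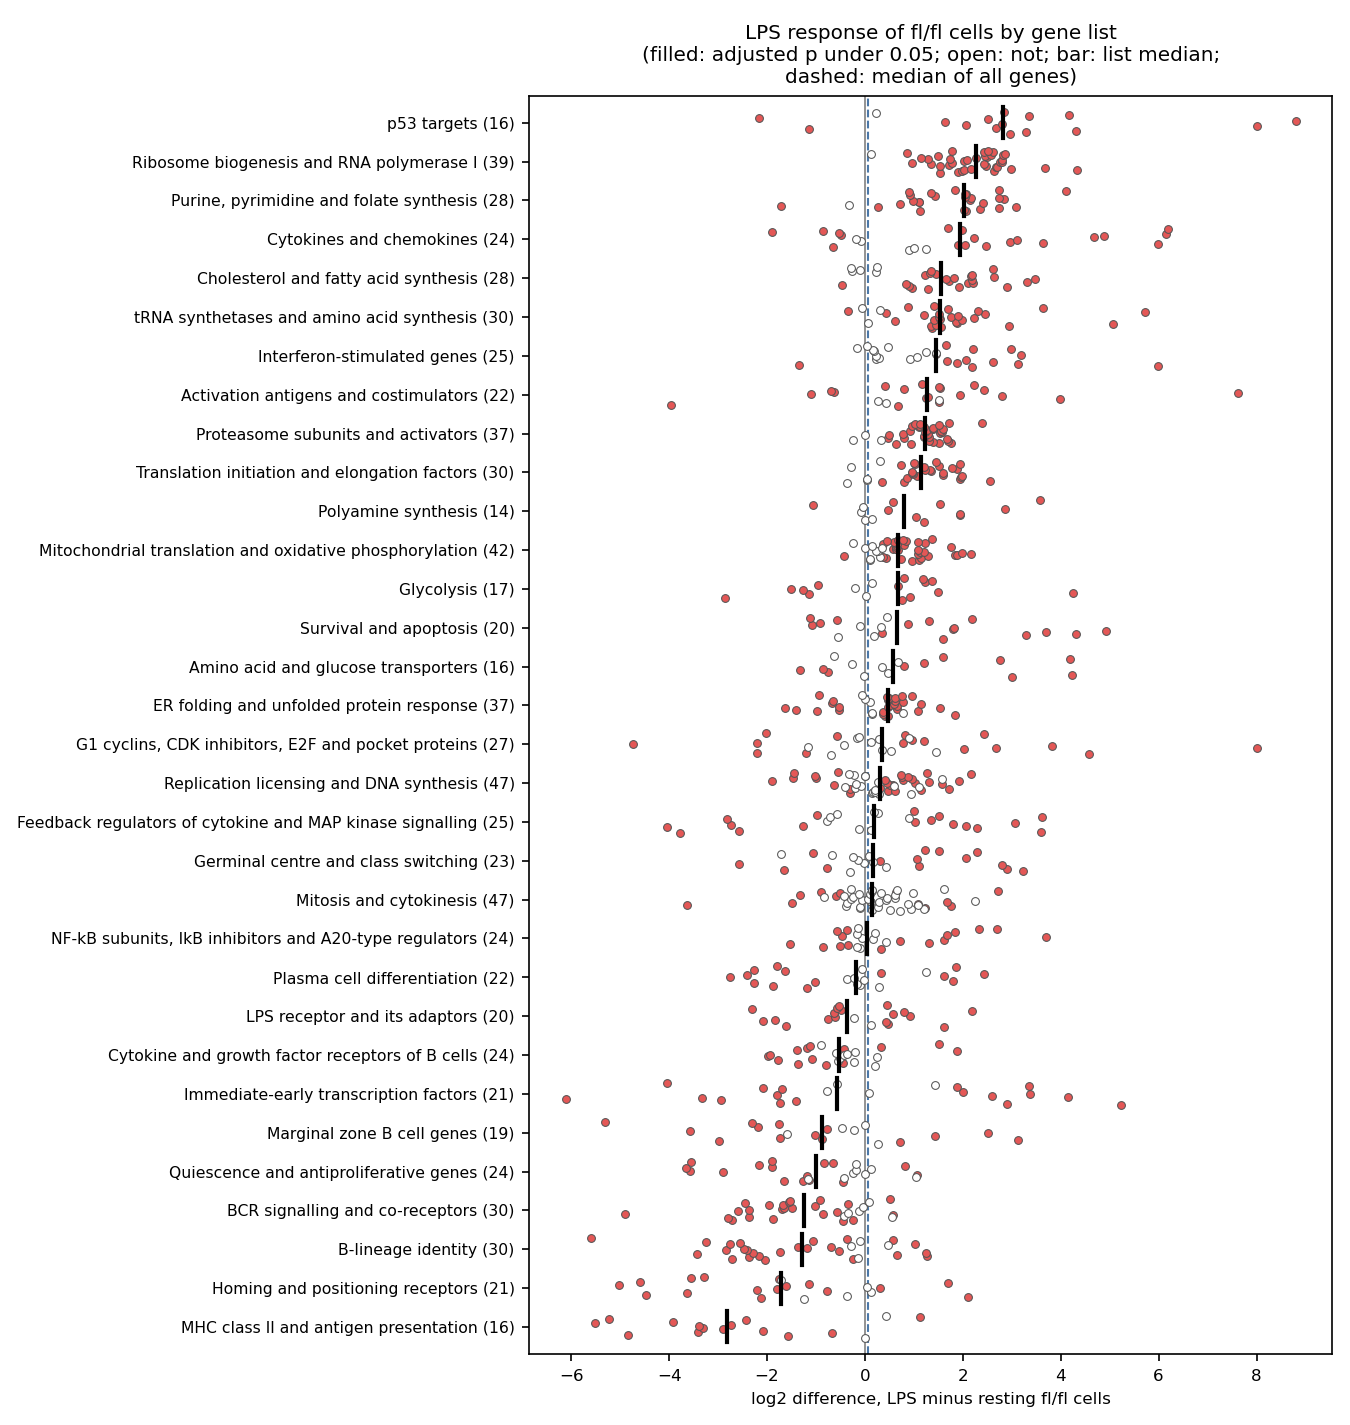
Log2 difference between LPS-stimulated and resting fl/fl cells (horizontal axis) for every tested member of 32 gene lists (vertical axis, number of genes tested in brackets). Filled points passed an adjusted p of 0.05, open points did not, black bars are list medians and the dashed line is the median of all 17134 genes, 0.06. List medians run from −2.82 for MHC class II and antigen presentation to 2.82 for p53 targets.

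The receptor for LPS fell after stimulation while a coreceptor and several adaptors rose. Of 20 tested genes of the LPS receptor and its adaptors, 8 rose and 10 fell (all genes: 29.9% and 25.7%), with a median of −0.36. Tlr4, the receptor itself, read −1.62, −1.56 and −1.38 resting and −4.32, −2.99 and −4.18 after LPS (log2 −2.31, standard error 0.34, adjusted p 0.000218). Cd180, the receptor RP105, fell 3.04-fold from 2.96, 2.62 and 2.59 to 0.95, 0.82 and 1.60, and Ly96, the MD-2 subunit that binds lipid A, fell 1.54-fold (adjusted p 0.00873). In none of these 3 did the resting and LPS values overlap. The signalling kinase Irak2 fell 4.26-fold and the inhibitory pseudokinase Irak3 3.55-fold. Going the other way, Cd14 read −2.19, −2.47 and −2.62 resting and −1.32, −0.78 and −0.34 after LPS (3.06-fold, adjusted p 0.011), and Ticam2, the adaptor that links TLR4 to TRIF, was above background on no resting array and at least 2.06-fold higher after LPS. With normexp correction the change of Ticam2 had the opposite sign (−0.13). Ticam1, which is TRIF, rose 1.73-fold, Map3k7, the kinase TAK1, by 0.92 and Myd88 by 0.58 on the log2 scale. The list median changed sign, to 0.05, when the probes of a gene were averaged.

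NF-kB pathway genes moved in both directions, in shares not far from those of all genes. Of 24 genes in this list 9 rose and 7 fell (37.5% and 29.2%, all genes: 29.9% and 25.7%). The median was 0.05, against 0.06 for all genes, and was −0.23 with scaling by the array median. The list holds the subunits, the inhibitors that retain them in the cytoplasm and the ubiquitin-editing enzymes that end the signal. Among the subunits Nfkb1 rose 2.46-fold, from 2.50, 2.64 and 2.41 to 3.86, 3.96 and 3.64 (standard error 0.11, adjusted p 6.62e-06). Rel, above background on only 1 of 3 resting arrays, rose 3.18-fold as fitted, and its rise vanished with normexp correction (log2 0.01). Nfkb2 read 4.16, 4.18 and 3.99 resting and 4.66, 4.43 and 4.52 after LPS and did not pass (log2 0.43, adjusted p 0.0573). Relb (log2 0.20, adjusted p 0.229) and Rela (log2 −0.16) did not pass either. Nfkbiz, an atypical inhibitor protein that acts in the nucleus on cytokine genes, rose 13-fold, from 1.35, 1.1 and 1.34 to 4.88, 4.88 and 5.12 (standard error 0.27, adjusted p 1.96e-06). Traf1, a signal adaptor downstream of TNF receptors, rose 6.48-fold, Tnfaip3, which encodes the deubiquitinase A20, 3.56-fold and Nfkbib 3.06-fold. Nfkbia, the inhibitor IkB-alpha, rose 1.65-fold from an already bright 6.95, 6.55 and 6.70 to 7.45, 7.28 and 7.64 (adjusted p 0.00315), a call that ended with scaling by the array median (log2 0.44). Map3k14, the kinase NIK of the noncanonical pathway, fell 2.90-fold, and Cyld fell by 0.85 on the log2 scale.

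The promoter of Nfkbia is shown because the gene is both a regulator of NF-kB and among those whose promoter holds one of the NF-kB sequences searched. These were GGGACTTTC, GGGAATTTC and GGGGATTCC on either strand within the 250 bases before the start site, in RefSeq promoters of GRCm38.p6. Of 20 list members with a promoter there, 5 held a match, Nfkbia, Nfkb2, Nfkbie, Nfkbid and Cyld, against 116 of 10801 promoters of all genes tested (1.07%). These 5 genes did not move together after LPS: Nfkbia rose, Cyld fell, and Nfkb2, Nfkbie (log2 −0.06) and Nfkbid (log2 0.16) did not pass. In the Nfkbia promoter, chr12:55492648-55492897 on the minus strand, printed 5′ to 3′, the capitals mark the match, which begins 28 bases before the start site.
Nfkbia: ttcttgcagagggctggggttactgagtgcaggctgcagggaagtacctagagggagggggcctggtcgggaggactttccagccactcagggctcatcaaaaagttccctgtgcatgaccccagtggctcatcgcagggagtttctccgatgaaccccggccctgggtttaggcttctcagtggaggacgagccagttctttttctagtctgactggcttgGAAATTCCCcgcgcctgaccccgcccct
A match of letters is a description of the sequence and not evidence of binding.

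Immediate-early transcription factors moved in opposite directions, 8 of 21 higher and 9 lower (median −0.56). These genes are switched on within minutes of a stimulus and off again soon after. Fos read 2.70, 1.65 and 2.34 in resting cells and −3.66, −4.13 and −3.85 after LPS (68.9-fold lower, standard error 1.11, adjusted p 0.000929). Egr1 read 2.24, 1.13 and 1.76 and then −0.09, −0.09 and 0.11 (3.32-fold lower, adjusted p 0.0108). Zfp36, which destabilises cytokine mRNAs, fell 16.5-fold, and Fosb, Egr3, Egr2, Klf6, Ier2 and Jund fell too. Against these, Jun rose 3.98-fold (adjusted p 0.0224), a call that ended without resting replicate 2 (log2 1.81) or LPS replicate 3 (log2 2.0). The AP-1 partner Fosl1 was seen above background only after LPS, at least 6.29-fold higher. Batf, an AP-1 factor needed for class switching, rose 7.45-fold, and Atf3, a stress-induced factor, by 5.23 on the log2 scale. Myc, which drives cell growth, rose 10.3-fold, from 2.72, 2.21 and 2.22 to 5.50, 5.94 and 5.78 (standard error 0.17, adjusted p 2.06e-07).

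Cytokine genes rose in 14 of 24 cases and fell in 5 (median 1.94, or 0.53 with normexp correction). Il6, a growth factor for plasmablasts, was above background on no resting array (−6.80, −7.51 and −7.21) and read −1.40, −0.44 and −1.20 after LPS, at least 18.4-fold higher (adjusted p 1.28e-07). Il10, the cytokine of regulatory B cells, was also undetected at rest and rose at least 5.74-fold, to −3.0, −2.02 and −3.05. Both remained dimmer than the 75th percentile of their arrays. Tnf rose 3.94-fold, from −0.31, −0.76 and −0.12 to 1.63, 1.55 and 1.55 (adjusted p 2.2e-05). Tnfsf4, the ligand of OX40, rose 73-fold as fitted with 1 of 3 resting arrays above background, Cxcl10, a chemokine induced by interferon, 63.4-fold, and Ebi3, a subunit shared by the cytokines IL-27 and IL-35, 12.5-fold. Il1b rose by 4.68 on the log2 scale with 2 of 3 resting arrays above background, and Il1rn, the receptor antagonist that opposes it, at least 8.10-fold. The chemokines Ccl3 and Ccl4 did not pass: Ccl3 read −0.45, −0.27 and 0.36 resting and 0.32, 1.65 and 1.39 after LPS (adjusted p 0.0832), with overlapping groups, and Ccl4 had a log2 difference of 1.0 (adjusted p 0.0549). Ltb, which encodes lymphotoxin beta and maintains follicles, fell 3.72-fold from 8.48, 8.49 and 8.49 to 6.60, 6.33 and 6.83 and was still among the brightest probes.

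Activation antigens rose in 15 of 22 cases and fell in 4 (median 1.27; 10 rose with scaling by the array median). Beside Il2ra, the costimulatory ligand Cd80 rose 15.8-fold, from −3.48, −3.11 and −3.59 to 0.41, 0.36 and 0.99 (adjusted p 6.62e-07), and Cd86 2.43-fold, from 0.01, 0.51 and 0.27 to 1.65, 1.48 and 1.51 (adjusted p 3.01e-05). Neither gene had overlapping groups. Fas, the death receptor of activated lymphocytes, rose 6.96-fold, Slamf7 5.39-fold, the adhesion receptor Icam1 3.83-fold, the transferrin receptor Tfrc 2.91-fold and Tnfrsf1b 2.86-fold. Cd69, an early activation antigen, did not pass: it read 2.71, 2.77 and 3.5 resting and 3.28, 3.29 and 3.21 after LPS (log2 0.27, adjusted p 0.585). Cd38, an ectoenzyme of resting mouse B cells, fell 15.6-fold, from 2.66, 2.53 and 2.62 to −1.44, −1.18 and −1.45 (standard error 0.16), and the costimulator Icosl by 1.1 on the log2 scale.

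**Figure D2:**
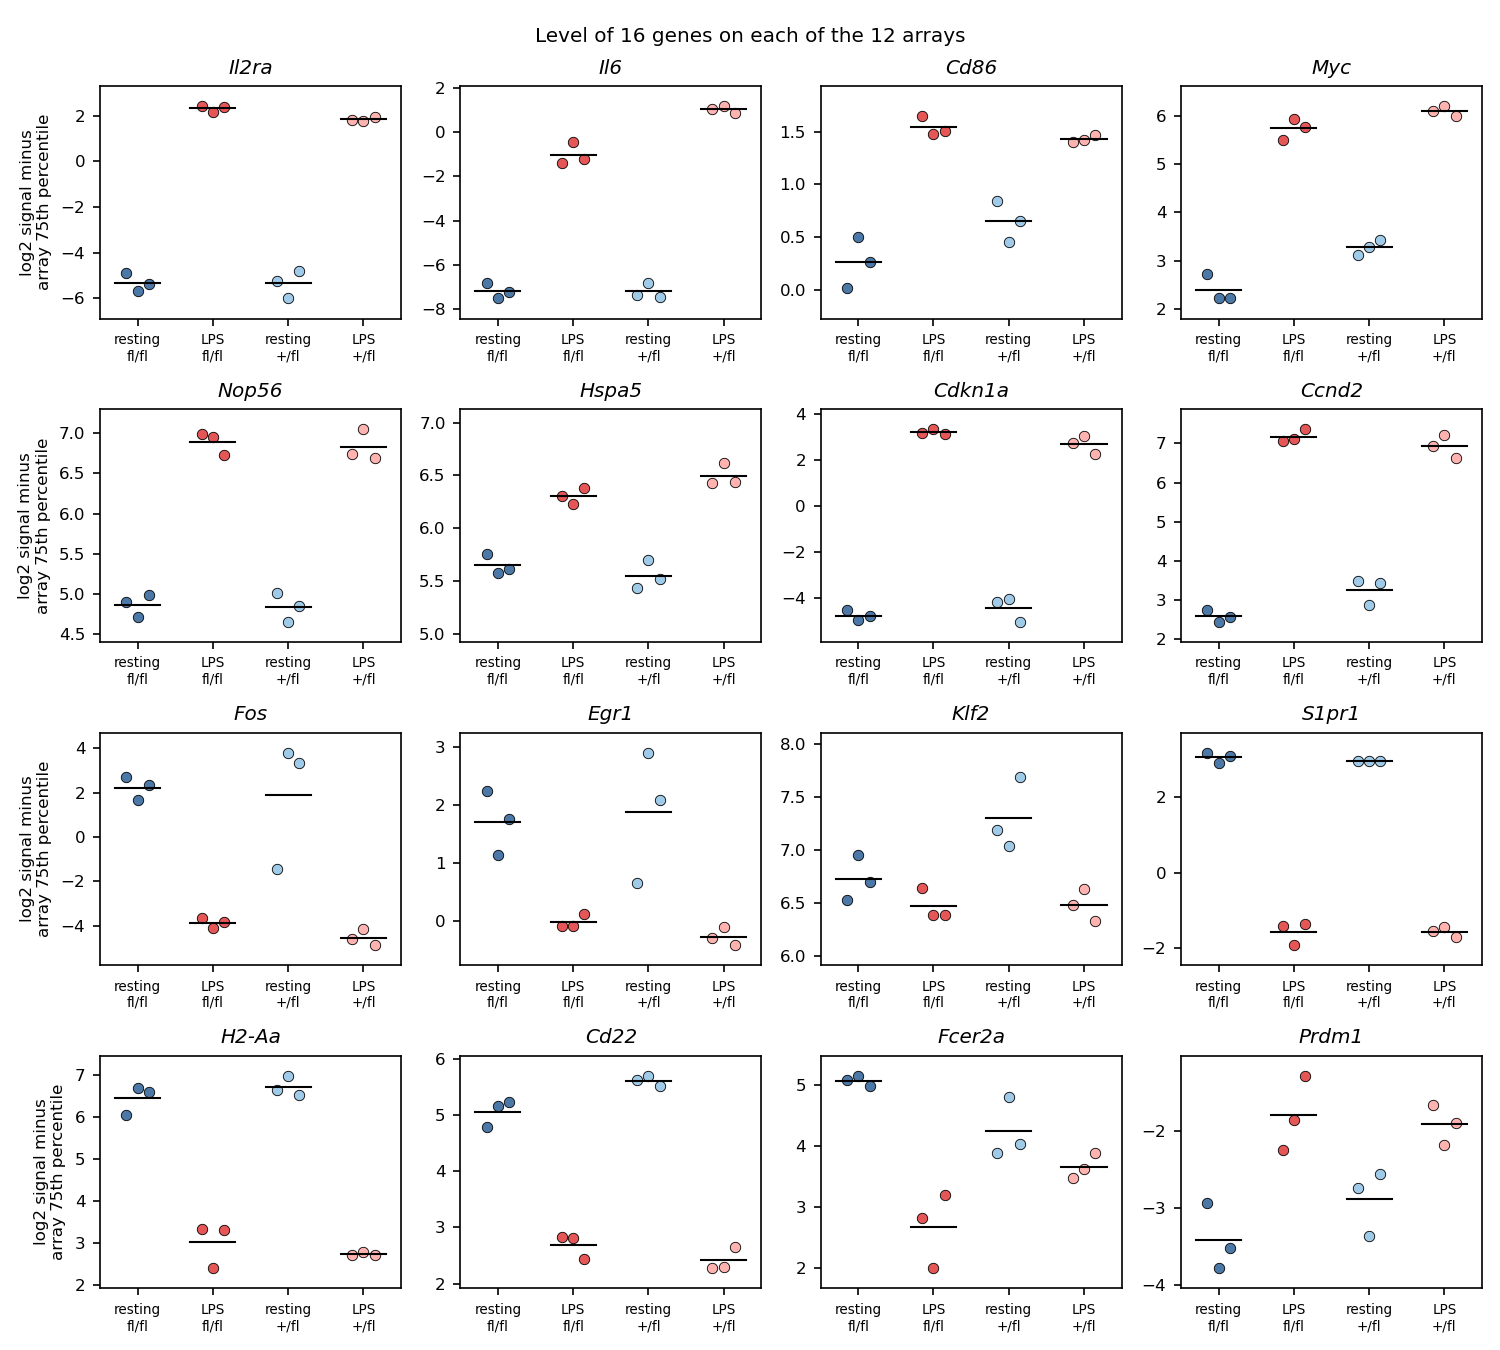
Log2 signal minus the array 75th percentile (vertical axis, scaled for each gene) of 16 genes on each of the 12 arrays, grouped by stimulation and genotype (horizontal axis). Points are arrays and lines are group means; in fl/fl cells Il2ra goes from −5.69 to −4.88 resting to 2.17 to 2.41 after LPS, while the Klf2 groups overlap.

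Quiescence genes fell: 14 of 24 were lower and 2, Rbl2 and Foxo3, higher (median −0.99). Klf4, which holds B cells out of cycle, read 2.73, 2.53 and 3.03 resting and −0.61, −0.86 and −0.98 after LPS (11.9-fold lower, standard error 0.76, adjusted p 0.00246). Mxd4, an antagonist of Myc, fell 12.6-fold, Tsc22d3, the glucocorticoid-induced leucine zipper, 11.8-fold, and Klf3 by 2.90 on the log2 scale. Btg1, an antiproliferative cofactor, fell 2.41-fold from 8.38, 8.04 and 8.16 to 6.98, 6.72 and 7.07, and Foxo1, the transcription factor of resting lymphocytes that PI3 kinase signals switch off, 2.28-fold. Klf2, a factor of lymphocyte quiescence, did not pass (6.53, 6.96 and 6.70 resting, 6.64, 6.39 and 6.39 after LPS, adjusted p 0.271), although the mean over its probes was lower and passed (log2 −2.09).

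Homing receptors fell in 13 of 21 cases and rose in 3 (median −1.72). Itgb7, the integrin chain of gut homing, read 6.42, 6.33 and 6.49 resting and 1.58, 1.25 and 1.32 after LPS (32.7-fold lower, standard error 0.12, adjusted p 9.57e-09). S1pr1, the receptor by which lymphocytes leave tissue, fell 24.3-fold, from 3.17, 2.88 and 3.08 to −1.41, −1.91 and −1.35. Cnr2, the cannabinoid receptor of B cells, fell 22.1-fold, and Cxcr4 by 3.63 on the log2 scale. The receptor for follicles, Cxcr5, did not pass (6.41, 5.97 and 6.08 resting, 6.31, 6.13 and 6.41 after LPS), with overlapping groups. Ccr7, which draws activated B cells to the border of the T cell zone, rose 4.33-fold, from 3.94, 4.22 and 4.09 to 6.31, 6.12 and 6.16 (adjusted p 6.63e-06), and Ptger4 and Itgal also rose.

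B-lineage identity genes fell in 21 of 30 cases and rose in 5 (median −1.28; none rose with scaling by the array median). The best-known transcription factor of the list was not among them: Pax5 read 3.07, 3.00 and 2.80 resting and 3.38, 3.03 and 3.85 after LPS (log2 0.46, adjusted p 0.2). The surface antigen gene Ms4a1, which encodes CD20, did not pass either (6.68, 6.86 and 7.09 resting, 6.62, 6.42 and 6.71 after LPS, adjusted p 0.173). In contrast Vpreb3, a protein of B cell receptor assembly, fell 48.5-fold, from 3.87, 3.02 and 3.43 to −2.45, −1.78 and −2.25 (standard error 0.26, adjusted p 1.46e-07). Cd79a, a signalling chain of the B cell receptor, read 0.54, 0.78 and 0.76 resting and −2.88, −2.54 and −2.79 after LPS, 10.8-fold lower, and its partner Cd79b fell 4.86-fold. Siglecg, an inhibitory receptor, fell 9.55-fold, the coactivator Pou2af1 6.73-fold and the transcription factor Ets1 by 2.84 on the log2 scale. Fcer2a, the low-affinity IgE receptor CD23, fell 5.28-fold, from 5.08, 5.15 and 4.98 to 2.81, 1.99 and 3.20. The genes that rose were Cd24a, Cd83, Pou2f2, Cd72 and Tcf12.

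Ebf1 was read by a probe for each of 2 transcripts. At the probe for NM_007897 it read 1.81, 1.67 and 1.71 resting and 1.11, 1.28 and 1.22 after LPS, a fall of 0.53 on the log2 scale with no overlap (standard error 0.15, adjusted p 0.0135 in a fit across probes). A second probe, for AK036716, was much dimmer and did not pass, with a log2 difference of 0.09 (adjusted p 0.892). The call at the first probe ended with scaling by the array median (−0.81), with the slide as a block without LPS replicate 2 (−0.53) and with the mean over both probes (−0.22). In +/fl cells the first probe differed by −0.03 (adjusted p 0.891 in the fit across probes), and the difference between the genotypes did not pass (adjusted p 0.25). Which exons are floxed is not stated in the labels, so these probes check nothing about the deletion.

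B cell receptor signalling genes fell in 22 of 30 cases and rose in 2, Vav2 and the co-receptor Cd81 (median −1.25). Kinases, adaptors and inhibitors of the pathway were among those that fell. Of the kinases, Blk fell 6.55-fold, Btk 3.67-fold and Syk 2.88-fold, and Lyn fell by 1.69 on the log2 scale. Syk read 5.23, 5.61 and 5.18 resting and 3.91, 3.66 and 3.88 after LPS (standard error 0.18). Dok3, an inhibitory adaptor, fell 29.9-fold, the phosphatase Inpp5d (SHIP1) 6.05-fold, the inhibitory co-receptor Cd22 5.14-fold and the phosphatase Ptpn6 (SHP-1) 2.94-fold.

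Genes of marginal zone B cells, the innate-like subset marked by CD21, fell in 10 of 19 cases and rose in 4 (median −0.88). Cr2 read 1.71, 1.59 and 1.54 resting and −0.10, −0.26 and −0.01 after LPS (3.33-fold lower, adjusted p 1.66e-06), and the gate on CD21 can set it. As CD21 marks this subset, the gate can also bear on the other genes of the list, which was not tested. Tm6sf1, a transmembrane protein gene, fell 39.8-fold, and Cd1d1, which presents lipids to NKT cells, 7.90-fold. S1pr3, a sphingosine-1-phosphate receptor, fell 3.39-fold. Marcks, a membrane-linked substrate of protein kinase C, rose 5.68-fold, Dph5 by 1.43 and the scavenger receptor Cd36 by 3.12 on the log2 scale.

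MHC class II genes fell as a group, 13 of 16 lower and 1 higher (median −2.82), and 13 were lower with each scaling tried. Ciita, the master activator of class II transcription, fell 28.6-fold, from 5.96, 5.60 and 6.06 to 1.23, 0.69 and 1.18 (standard error 0.18, adjusted p 5.3e-08). Among peptide-loading genes H2-Oa, an inhibitor of peptide exchange, fell 45.4-fold and H2-DMa, which loads peptides, 7.45-fold. Marchf1, the ligase that removes class II from the surface, fell 37.4-fold. The chains themselves fell too and stayed bright: H2-Aa read 6.04, 6.69 and 6.58 resting and 3.35, 2.41 and 3.31 after LPS (10.6-fold), H2-Eb1 fell 6.67-fold, H2-Ab1 4.26-fold and the invariant chain Cd74 2.98-fold, to 7.20, 7.14 and 7.19. Tap1, a peptide transporter of the class I pathway, rose 2.19-fold (adjusted p 0.00838), and B2m, the class I light chain, had a log2 difference of −0.01.

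Ribosome biogenesis was the list with the largest share of rises: 38 of 39 genes rose, none fell, and the median was 2.28 (36 rose with scaling by the array median). The exception was Ubtf, the RNA polymerase I activator, with a log2 difference of 0.13. Nucleolin, Ncl, read 4.92, 5.77 and 5.32 resting and 8.04, 8.03 and 8.05 after LPS (6.52-fold, adjusted p 1.54e-06), and the box C/D protein genes Fbl and Nop56 rose 4.09-fold and 4.07-fold. Nop2, an rRNA methyltransferase, rose 6.98-fold, from 3.21, 3.16 and 3.23 to 6.01, 6.14 and 5.85 (standard error 0.10, adjusted p 5.3e-08), Rrp9 7.07-fold and Gar1 20.1-fold. Polr1b, the second largest subunit of RNA polymerase I, rose 4.85-fold. The E box CACGTG, the sequence MYC binds, was held by 3 of 34 promoters of this list (8.82%: Imp4, Nop2 and Rrn3) and by 9.52% of all 10801 promoters, so it was not more frequent in this window. Translation factors rose in 25 of 30 cases and none fell (median 1.14; 15 rose with scaling by the array median): the helicase Eif4a1 rose 3.69-fold, the cap-binding protein Eif4e 3.43-fold and Eif2s1 3.98-fold. The elongation factors Eef1a1 and Eef2 did not pass (log2 −0.36 and 0.05).

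Polyamine and nucleotide synthesis rose with them. Odc1, which makes putrescine, read 3.78, 3.72 and 4.14 resting and 6.67, 6.89 and 6.63 after LPS (7.22-fold, adjusted p 2.63e-07), and Srm, which makes spermidine, rose 12-fold, within a list in which 9 of 14 rose and 1, Sat1, fell. Sat1 degrades polyamines, and it fell by 1.05 on the log2 scale. Of 28 genes of purine, pyrimidine and folate synthesis 26 rose and 1, Ctps2, fell (median 2.03; 18 rose with scaling by the array median). Ctps, which makes CTP, rose 8.55-fold, from 1.97, 2.09 and 2.18 to 5.11, 5.25 and 5.16 (standard error 0.12, adjusted p 5.3e-08), and Cad, which starts pyrimidine synthesis, 6.71-fold. The serine hydroxymethyltransferases Shmt1 and Shmt2 rose 17.1-fold and 6.69-fold, and the mitochondrial folate enzyme Mthfd2 6.69-fold.

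Nutrient uptake and energy genes changed unevenly. Transporters rose in 7 of 16 cases and fell in 3 (median 0.58): Slc7a5, the large neutral amino acid transporter, rose 18.2-fold, from −1.29, −1.61 and −1.19 to 2.28, 3.29 and 2.91, Slc1a4 at least 16.8-fold, and the lactate transporter Slc16a1 8.0-fold. The glucose transporter Slc2a1 fell 1.69-fold (4.04, 3.58 and 3.64, then 2.98, 3.17 and 2.84, adjusted p 0.00241). In glycolysis 9 of 17 rose and 5 fell (median 0.67; 5 rose with scaling by the array median). Hk2, a hexokinase isoform of growing cells, rose 18.9-fold, from −0.23, −0.75 and −0.75 to 3.58, 4.0 and 3.41 (adjusted p 7.97e-07), while Hk1 fell by 1.14 on the log2 scale. Ldha rose 2.80-fold and Ldhb fell by 1.26 on the log2 scale. Pgk1 and Pkm rose 2.59-fold and 2.29-fold.

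Amino acid and lipid synthesis rose too. Of 30 tRNA synthetase and amino acid synthesis genes 26 rose and 1, Qars, fell (median 1.53). Pycr1, the last enzyme of proline synthesis, was above background on no resting array and rose at least 28.9-fold. Trib3, an ATF4-induced pseudokinase, rose 12.4-fold, Asns, asparagine synthetase, 7.66-fold and Psat1, of serine synthesis, 5.50-fold. Chac1, which degrades glutathione, rose by 5.08 on the log2 scale with 2 of 3 resting arrays above background. Of 28 cholesterol and fatty acid synthesis genes 22 rose and 1, Ebp, fell (median 1.55). Idi1 read 1.36, 0.86 and 1.63 resting and 4.86, 4.53 and 4.87 after LPS (11.1-fold, adjusted p 6.54e-07), Fdps rose 9.90-fold, Cyp51 7.52-fold, Sqle 6.09-fold and Fasn 4.33-fold. Their transcription factors Srebf1 and Srebf2 did not pass (log2 −0.28 and 0.26).

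Proteasome subunit genes rose in 34 of 37 cases and none fell (median 1.23; 21 rose with scaling by the array median), among them the assembly factor Psmg1 (5.25-fold), the activator Psme3 (3.29-fold) and Psma6 (3.25-fold, from 3.80, 3.83 and 3.85 to 5.43, 5.62 and 5.54). The 3 that did not pass were Psmb8, Psmb10 and Psmb1. Psmb8 and Psmb10 encode catalytic subunits of the immunoproteasome, with log2 differences of −0.00 and −0.25. Mitochondrial translation and oxidative phosphorylation genes rose in 32 of 42 cases and fell in 1, Cox8a (median 0.68), but in only 11 with scaling by the array median. The mitochondrial ribosomal protein genes Mrpl15 and Mrps18b rose 4.49-fold and 3.97-fold, and cytochrome c, Cycs, 3.59-fold.

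Cell cycle genes moved unevenly, with more rises than falls among replication genes in the scaling used here and few calls among mitotic genes. Calls in the G1 list were in shares not far from those of all genes. Of 27 G1 genes 10 rose and 6 fell (37.0% and 22.2%, all genes: 29.9% and 25.7%). The median of the G1 list was 0.35, or −0.03 with normexp correction. Ccnd2, the D cyclin that B cells use, rose 24-fold, from 2.75, 2.45 and 2.56 to 7.06, 7.11 and 7.35 (standard error 0.20, adjusted p 1.18e-07), while Ccnd3 fell by 1.21 on the log2 scale and Ccnd1 did not pass (log2 −0.69). Cdk6 rose 6.38-fold and Cdk4 4.08-fold. Of the CDK inhibitors Cdkn1a rose 256-fold and Cdkn2b by 3.82 on the log2 scale, with 2 of 3 resting arrays above background, whereas Cdkn2d fell 26.7-fold, from 4.79, 4.37 and 4.77 to −0.31, 0.05 and −0.03. Ccne1, the cyclin of S phase entry, fell 4.58-fold. E2f1 rose 1.71-fold (adjusted p 0.00404), a call that ended with normexp correction (log2 0.34) and with scaling by the array median (log2 0.50). E2f2 fell by 2.21 on the log2 scale.

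Replication genes rose in 20 of 47 cases and fell in 9 (median 0.30, and 6 rose and 6 fell with scaling by the array median). The median level of the list did not rise, at 1.29, 1.30 and 1.41 on the resting arrays and 1.35, 1.37 and 1.18 on the LPS arrays. Rrm2, the ribonucleotide reductase subunit of S phase, rose 4.49-fold, from −1.58, −2.77 and −1.82 to −0.05, 0.28 and 0.10 (adjusted p 0.00411), the flap nuclease Fen1 2.21-fold and the sliding clamp Pcna 2.03-fold. The helicase subunit Mcm2 did not pass (1.29, 1.36 and 1.41 resting, 1.24, 1.65 and 0.96 after LPS), and Pold1 and Rfc1 fell 3.73-fold and 2.75-fold. The E2F sequences TTTCCCGC, TTTGGCGC and TTTCGCGC were held by 8 of 39 promoters of this list (20.5%) against 3.19% of all promoters, and by 2 of 38 promoters of the mitosis list.

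Mitotic genes gave a result that rested on 1 array. Of 47 genes 6 rose, 6 fell and 35 did not pass, with a median of 0.15 that was −0.40 without LPS replicate 2, when 3 rose and 6 fell. The median level of the list was −2.24, −0.97 and −2.10 on the LPS arrays and −2.15, −2.24 and −1.85 on the resting arrays, so only LPS replicate 2, whose dim probes read high, was above the resting range. Cdk1, the kinase of mitotic entry, read −4.47, −4.30 and −3.92 resting and −4.01, −1.93 and −4.13 after LPS (adjusted p 0.29). Top2a (adjusted p 0.303), Ccnb1 (adjusted p 0.756) and Plk1 (adjusted p 0.872) did not pass either. Spc25, a kinetochore protein gene, rose 6.61-fold, from −2.64, −1.70 and −1.78 to 0.50, 0.85 and 0.72, with or without that array (log2 2.64 without it). Cdc25b, a phosphatase that activates CDK1, fell 12.4-fold, from 3.78, 3.84 and 3.61 to 0.02, 0.37 and −0.06.

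Target genes of p53 had the highest list median, 2.82: of 16 tested 13 rose and 2, Sesn1 and Btg2, fell, counts that were also found with each scaling tried. The p53 protein answers to DNA damage and other stress by halting the cycle or starting apoptosis. Beside Phlda3 and Cdkn1a, Bbc3, the death activator PUMA, rose 19.8-fold, from 1.56, 1.16 and 0.69 to 5.50, 5.14 and 5.68 (standard error 0.22, adjusted p 2.57e-07). Bax, which permeabilises mitochondria, rose 9.74-fold, Aen, a nuclease of apoptosis, 7.84-fold and Zmat3 7.16-fold. Ccng1 rose 6.38-fold, and Mdm2, the ligase that degrades p53, 3.12-fold, from 1.92, 1.77 and 2.02 to 3.61, 3.34 and 3.67. Sesn2 rose 10.2-fold while its relative Sesn1 fell 4.50-fold, from 5.75, 5.56 and 5.71 to 3.65, 3.14 and 3.72.

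Survival and apoptosis genes rose in 11 of 20 cases and fell in 4 (median 0.67), with both protectors and killers among those that rose. Bcl2l1, which encodes BCL-XL, rose 30.4-fold, from −2.01, −2.62 and −3.0 to 2.42, 2.23 and 2.50 (standard error 0.23, adjusted p 1.44e-07), and Bcl2a1b, an A1 protector and NF-kB target with near-identical copies whose RNA the probe may share, 13-fold. Of the killers, Bcl2l11, which encodes BIM, rose 3.48-fold and Pmaip1 (NOXA) by 2.19 on the log2 scale, beside Bax and Bbc3. Mcl1 fell 1.48-fold (adjusted p 0.00627), a call that ended with scaling by the array median. Bcl2 rose 1.28-fold (adjusted p 0.0303), a call that ended in 11 alternatives, quantile normalization, scaling by the array median and leaving out resting replicate 2 or 3 or LPS replicate 1 or 3 among them. Tnfrsf13c, the BAFF receptor, fell 2.17-fold, from 4.24, 4.14 and 4.28 to 3.15, 3.29 and 2.86 (adjusted p 0.000109).

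Genes of antibody secretion split. Of 22 plasma cell genes 5 rose and 9 fell (median −0.19). Prdm1, which encodes BLIMP-1, rose 3.06-fold, from −2.94, −3.78 and −3.52 to −2.25, −1.87 and −1.29 (adjusted p 0.00131), and Irf4 3.46-fold, from 0.88, 0.84 and 0.96 to 2.69, 2.85 and 2.52. Xbp1, the factor of the secretory apparatus, did not pass (1.34, 1.72 and 1.55, then 1.56, 1.49 and 1.39), and Jchain, which joins IgM polymers, had overlapping groups (2.51, 0.47 and 2.77, then 0.77, 3.16 and 1.77). The plasma cell antigen Sdc1 fell 5.32-fold and the ER proteins Txndc5 and Fkbp11 4.84-fold and 4.81-fold. Germinal centre and class switching genes rose in 10 of 23 cases and fell in 4 (median 0.16, −0.12 with scaling by the array median). Of these Apex1, a base excision repair nuclease, rose 9.39-fold, Ung, which removes uracil from DNA, 4.91-fold and the end-joining protein Xrcc5 2.84-fold. Bcl6 fell 1.70-fold (adjusted p 0.0181), a call that ended without LPS replicate 2 (log2 −0.60, adjusted p 0.065) and without resting replicate 1 (log2 −0.58).

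Genes of endoplasmic reticulum folding and the unfolded protein response shifted by less: 23 of 37 rose and 8 fell, with a median of 0.46. This count rested on the scaling, with 14 higher and 8 lower after quantile normalization and 2 higher and 5 lower with scaling by the array median. The lectin chaperone Canx rose 3.58-fold, from 4.39, 4.22 and 4.40 to 6.28, 5.90 and 6.34 (adjusted p 1.86e-06), and the oxidase Ero1a 2.89-fold. Hspa5, the chaperone BiP, read 5.75, 5.58 and 5.61 resting and 6.30, 6.23 and 6.38 after LPS (1.58-fold, adjusted p 0.000431), and Hsp90b1, GRP94, rose 1.39-fold (adjusted p 0.0225), a call that ended in 13 alternatives, quantile normalization (log2 0.28) and the slide as a block (log2 0.47) among them. The stress sensor Eif2ak3, which is PERK, fell 2.66-fold and the ligase Syvn1 1.91-fold.

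The ER stress element is a pair of sequences, CCAAT and CCACG, 9 bases apart, that ATF6 and NF-Y bind. It was found on either strand in 10 of 30 promoters of this list (33.3%) against 18 of 10801 promoters of all genes tested (0.167%). The elements of 4 genes that rose and of the 3 that fell are printed because carriers of the same element moved in both directions after LPS. They are written 5′ to 3′ on the strand that reads CCAAT, with both parts in capitals and 10 bases on either side. Canx, Pdia6, Hspa5 and Creld2 rose by 1.84, 0.79, 0.66 and 0.36 on the log2 scale, while Syvn1, Dnajc3 and Ero1b fell by 0.93, 0.97 and 1.63.
Canx: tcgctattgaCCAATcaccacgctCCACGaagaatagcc
Pdia6: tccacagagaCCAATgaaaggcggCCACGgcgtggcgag
Hspa5: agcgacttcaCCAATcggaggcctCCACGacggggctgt
Creld2: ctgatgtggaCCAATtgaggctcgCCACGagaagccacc
Syvn1: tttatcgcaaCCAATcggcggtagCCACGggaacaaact
Dnajc3: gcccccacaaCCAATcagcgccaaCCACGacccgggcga
Ero1b: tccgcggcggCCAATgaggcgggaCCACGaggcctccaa
On GRCm38.p6 these lie at chr11:50325790-50325828, chr12:17266481-17266519, chr2:34772015-34772053, chr15:88819510-88819548, chr19:6046522-6046560, chr14:118937817-118937855 and chr13:12565672-12565710, in the order printed. Of the other 3 carriers Hsp90b1, with 2 elements, and Calr rose, and Derl3 did not pass (log2 0.79, adjusted p 0.0538).

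Feedback regulators of cytokine and MAP kinase signalling moved both ways, 10 of 25 higher and 7 lower (40% and 28%, all genes: 29.9% and 25.7%). Their median was 0.18, and −0.10 with scaling by the array median. The ERK phosphatase Dusp6 fell 16.4-fold, from 4.61, 3.78 and 4.29 to 0.24, 0.16 and 0.16, and Dusp1 and Rgs2 fell too, while Dusp4 rose by 2.29 on the log2 scale. The STAT5-induced regulators Socs2 and Cish rose 12.3-fold and 12.2-fold and the survival kinase Pim2 8.33-fold, from 1.34, 1.38 and 1.54 to 4.47, 4.55 and 4.41. Receptors for cytokines fell in 11 of 24 cases and rose in 3 (median −0.53). Il4ra fell 3.82-fold, Il10ra 3.42-fold, from 4.92, 4.85 and 4.91 to 3.24, 3.03 and 3.09, and Il10rb 2.11-fold. Il7r rose 3.68-fold (adjusted p 0.00649).

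Interferon-stimulated genes rose in 12 of 25 cases and fell in 1, Ddx58 (median 1.45). Isg15, a ubiquitin-like modifier, read 0.15, 0.65 and 1.40 resting and 3.63, 4.0 and 4.12 after LPS (9.08-fold, standard error 0.56, adjusted p 0.000791), and the GTPase gene Gbp2 rose 8.71-fold, Bst2 (tetherin) 4.57-fold and Gbp3 3.71-fold. The resting arrays differed among themselves, with list medians of 1.19, 1.70 and 2.17, against 2.96, 3.14 and 3.06 on the LPS arrays. Irf7, the amplifier of the interferon response, read 0.56, 1.81 and 2.35 resting and 2.38, 3.02 and 2.48 after LPS and did not pass (adjusted p 0.156), nor did Mx1 (adjusted p 0.0505).

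Markers of other cells were present, and their lists differed in how far they changed (all genes: 29.9% higher and 25.7% lower). Calls in the T cell and dendritic cell lists were near or below these shares. Natural killer cell markers fell in 10 of 11 cases, all 11 above background on all 6 arrays, with a summed level of 29.7 to 32.9 resting and 5.76 to 10.7 after LPS in units of the array's 75th percentile. Their granule protein gene Nkg7 read 2.96, 3.1 and 3.33 resting and 0.70, 0.41 and −0.27 after LPS. Platelet markers fell in 6 of 9 cases (12.6 to 15.1, then 1.75 to 2.42, with Ppbp above background on no LPS array). Monocyte, macrophage and neutrophil markers split: of 17, 6 fell, among them the macrophage genes C1qa, C1qb, C1qc and Csf1r, and 4 rose, among them the neutrophil genes S100a8 (log2 3.98) and S100a9 (log2 3.66), with a summed level of 32.0 to 54.7 resting and 65.9 to 124 after LPS. T cell markers were 29.9 to 35.4 in sum and then 14.1 to 17.5, with 3 of 12 lower (25%) and 2 higher (16.7%), and Cd3e (log2 −0.03) did not pass. Dendritic cell markers were 17.4 to 29.3 and then 69.5 to 91.3 in sum, with 3 of 11 higher, including Bst2, and 3 lower (27.3% each). The median change of that list was −0.43, so its sum and its median went in opposite directions. Erythroid markers varied most between resting arrays, 8.60 to 99.0 in sum, and Rhag was above background on none of them. B cell markers were 509 to 579 and then 243 to 295 in sum. The part of these cells in the falls of B cell, homing and complement genes or in the rises of Cd14, Il1b and interferon-stimulated genes was not tested.

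**Figure D3:**
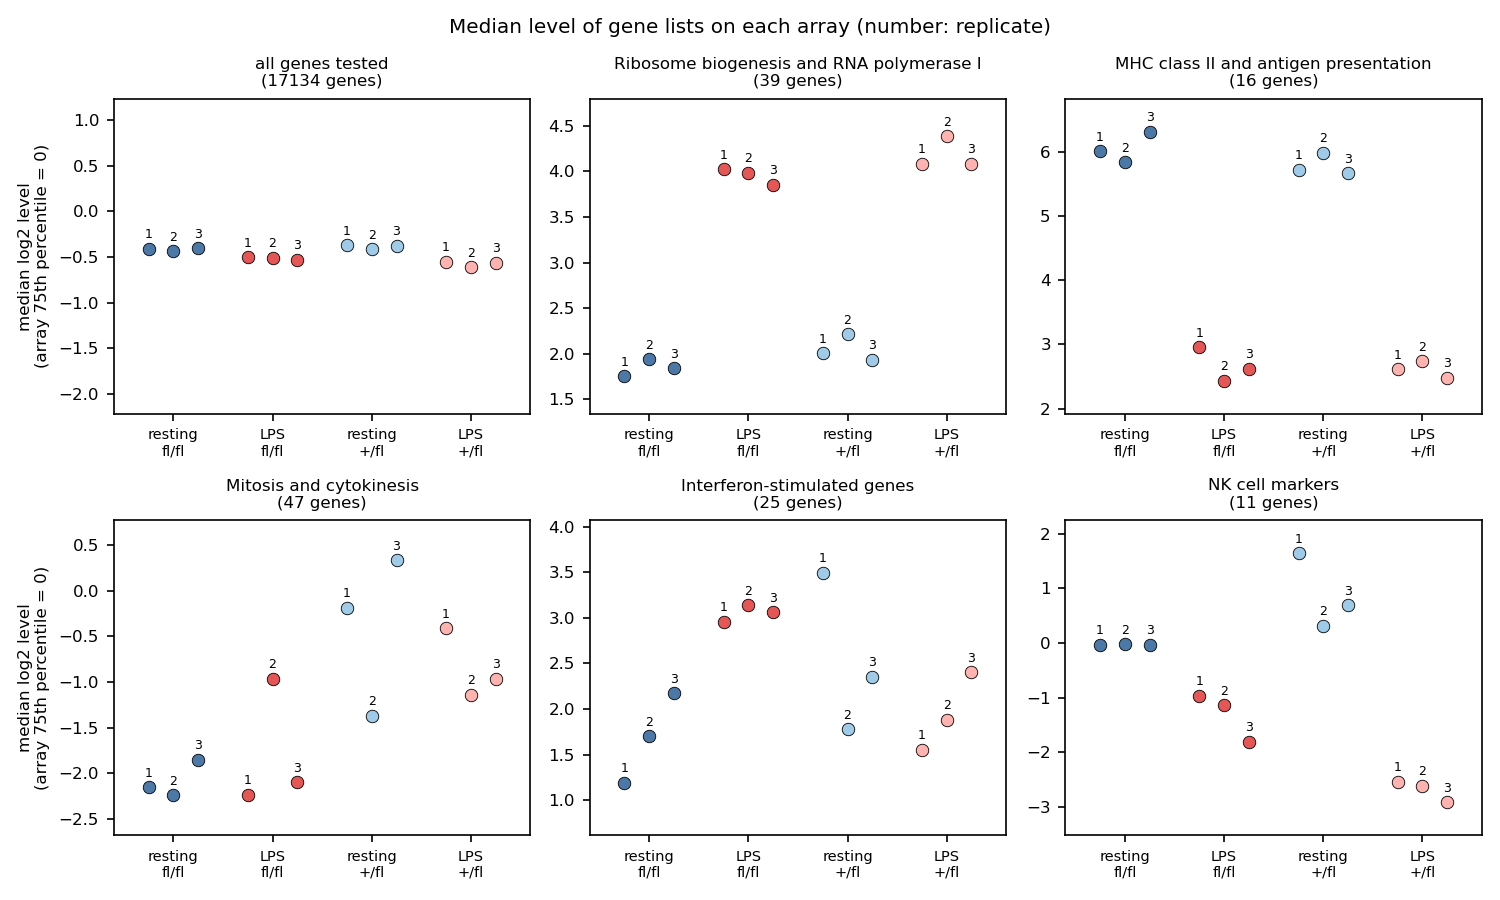
Median log2 level of 6 gene lists, with the array 75th percentile at 0 (vertical axis), on each array by group (horizontal axis); numbers are replicates. In fl/fl cells ribosome biogenesis went from 1.76 to 1.94 resting to 3.85 to 4.02 after LPS and MHC class II from 5.83 to 6.31 to 2.44 to 2.96, whereas LPS replicate 2 alone was high for mitosis.

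The same contrast in +/fl cells gave 5193 genes higher and 4695 lower (30.3% and 27.4%, together 57.7%, limma). Of the fl/fl calls, 7677 were also called in +/fl cells with the same sign, which is 80.6% of the fl/fl and 77.6% of the +/fl calls, and 30 were called with opposite signs. The difference between the responses passed for 30 genes (0.175% of all, 3470 at an unadjusted p under 0.05), of which 18 were higher (0.105%) and 12 lower (0.0700%) in fl/fl than in +/fl cells, and 17 of the 30 also passed without LPS fl/fl replicate 2. Across alternatives this count ran from 4 to 412, so single genes of this set rest on the model chosen. Slides were not balanced between genotypes after LPS: fl/fl replicates 1, 2 and 3 lay on slides 3, 3 and 2, and +/fl replicates on slides 2, 1 and 1. Genotype and slide can therefore not be fully told apart among the LPS arrays. In fl/fl and +/fl cells the list medians were 2.28 and 2.23 for ribosome biogenesis, 2.82 and 2.63 for p53 targets and −2.82 and −3.07 for MHC class II, but 0.15 and −0.49 for mitosis, whose fl/fl value rests on LPS replicate 2. Of all list members only S1pr3 passed the test of the difference.

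**Figure D4:**
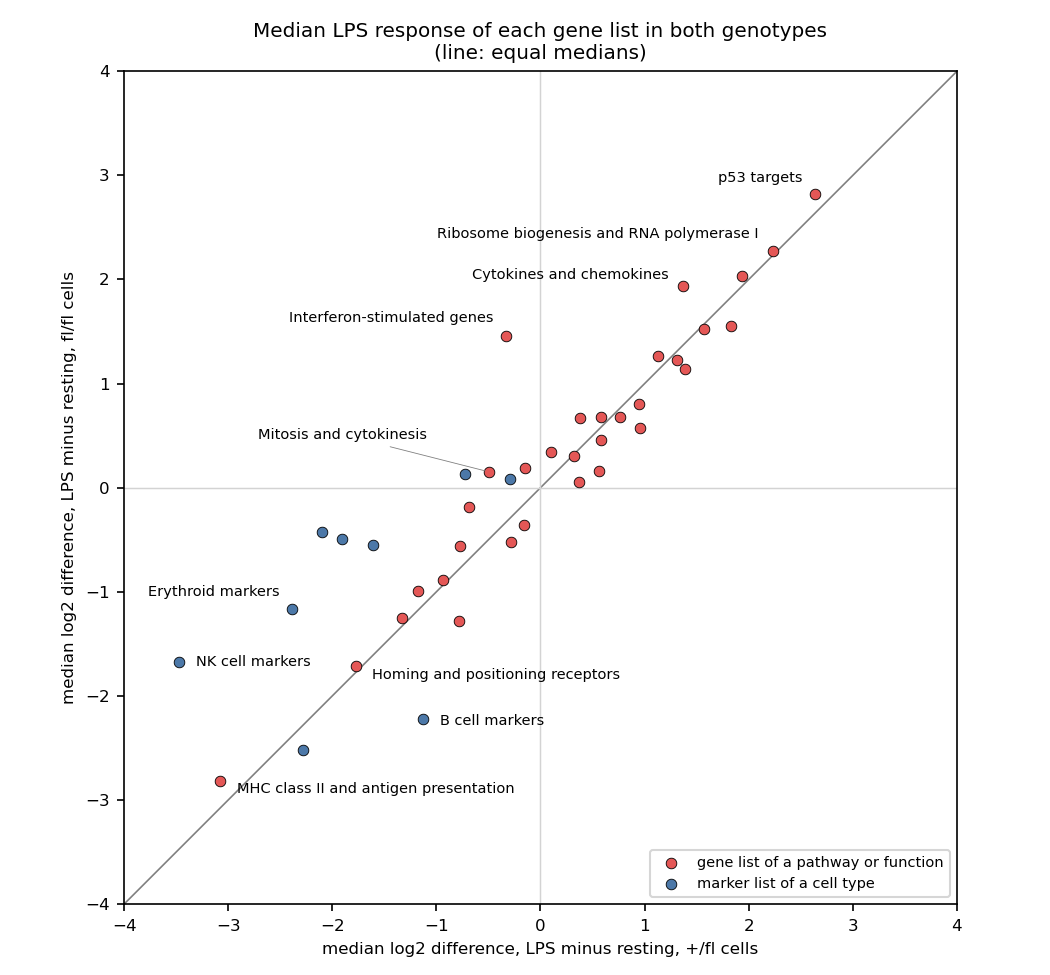
Median log2 LPS response of each gene list in +/fl cells (horizontal axis) and in fl/fl cells (vertical axis), with the line of equal medians. Most gene lists lie near the line; interferon-stimulated genes, at −0.33 and 1.45, lie far above it, but no member passed the test of the difference.

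S1pr3 and several of the other genes with a difference started from different resting levels. The part of the sort gate on CD21 in the levels of S1pr3, a member of the marginal zone list, was not tested. S1pr3 fell by 1.76 in fl/fl and by 4.38 in +/fl cells on the log2 scale (difference 2.61, standard error 0.27, adjusted p 0.00724), from −2.03, −1.93 and −1.77 in resting fl/fl cells and 1.05, 0.91 and 1.20 in resting +/fl cells to −3.81, −3.36 and −3.84 and to −2.99, −3.64 and −3.34. Plaur, the urokinase receptor, did not pass in fl/fl cells (0.31, −0.44 and 0.79, then −0.34, 0.24 and 0.10) and fell by 3.77 in +/fl cells from 3.37, 3.73 and 3.56. Tlr3, the receptor for double-stranded RNA, likewise did not pass in fl/fl cells (−4.35, −3.98 and −3.86, then −4.55, −4.51 and −4.34) and fell in +/fl cells to levels above background on none of 3 arrays. Jhy fell only from the fl/fl resting level, since it was above background on no +/fl array. Atp10d, a phospholipid flippase gene, fell 4.04-fold in fl/fl cells, from 2.27, 2.22 and 2.18 to 0.11, 0.21 and 0.31, and had a log2 difference of −0.23 in +/fl cells (adjusted p 0.0862).

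Interferon-stimulated genes had different counts in both genotypes, and no member passed the test of the difference. In +/fl cells 5 of 25 rose and 8 fell (median −0.33), against 12 and 1 in fl/fl cells. The +/fl resting arrays had list medians of 3.49, 1.78 and 2.35 and the +/fl LPS arrays 1.56, 1.88 and 2.40, so the resting +/fl arrays were spread more widely than the fl/fl ones. Markers of other cells moved alongside: monocyte, macrophage and neutrophil markers rose in 4 and fell in 6 of 17 cases in fl/fl cells and fell in 11 in +/fl cells, and medians in fl/fl and +/fl cells were −1.68 and −3.47 for natural killer and −0.43 and −2.10 for dendritic cell markers. Resting +/fl replicate 1, the highest resting array for interferon-stimulated genes, was also the highest for monocyte (median level 1.77) and natural killer cell markers (1.64). The part of these cells in the difference was not tested. Irf7 fell in +/fl cells (4.12, 1.85 and 3.16, then 0.53, 1.45 and 0.89, adjusted p 0.011), and the difference of its responses had an adjusted p of 0.106. Il6 was above background on no resting array of either genotype, so its rise is only bounded, at least 18.4-fold in fl/fl and at least 76.8-fold in +/fl cells. Its levels after LPS were 1.03, 1.17 and 0.89 in +/fl cells, all above the fl/fl values of −1.40, −0.44 and −1.20. The difference of the Il6 responses did not pass, and its levels after LPS were not tested between genotypes, whose LPS arrays lay largely on different slides.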

How the data were processed

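Scanner output of 12 1-colour Agilent mouse arrays was read, 1 array a sample. The values used are the background-subtracted spot intensity (gProcessedSignal), deposited as Feature Extraction 9.5.3.1 wrote it per the file headers, while the submitters' processing notes name Agilent Feature Extraction 9.1. The value table the authors deposited holds intensity on a linear scale with equal column medians (30.8), and served as an alternative. Spots with outlier flags were left out (87 probes lost), replicate spots averaged, log2 taken and the array's 75th percentile subtracted. A probe was kept when 3 or more of the 12 arrays had it well above background (25678 probes, 17134 genes), and a gene was read from its brightest probe. Probes were named by accession (22951), current symbol (6659) or older symbol (3109) in a RefSeq gene table; 8455 kept the name in the file.

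In R 4.3.3, limma 3.58.1 (lmFit and eBayes) estimated a mean for each of the 4 groups from the 12 arrays, with Benjamini-Hochberg adjustment over all genes, also for the difference between the responses of both genotypes. The fit was tested on simulated data. A group above background on none of its arrays gives a lower bound of the fold, and promoters of 10801 tested genes came from RefSeq.

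Named were Ebf1, the 10 largest changes each way with groups that do not overlap and that hold without LPS fl/fl replicate 2, lead members of each list, 4 members per list by smallest p, and the 5 largest differences each way that hold without that array. Other list members named were chosen after their values were seen. The members and lists were chosen with earlier results of these data known. The lists are described by counts and medians only and overlap in members. Alternatives were background correction, normalization, filter, slide, replicate number, variance model, array weights, probes per gene, threshold, and leaving out each array; fitting and filtering without LPS fl/fl replicate 2 together was added after seeing the data. Replicate numbers did not pair the arrays: deviations of same-numbered fl/fl arrays correlated at −0.066, −0.058 and −0.049. Some list members have no probe on the array or did not pass the filter, and counts are of tested members. Some items are not reported here.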

Additional observations from a re-analysis of the deposited data

Results flagged for a closer look

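The test of the difference between fl/fl and +/fl LPS responses passed for 17 genes both with all 12 arrays and without LPS fl/fl replicate 2. The 5 with the largest difference each way are given (fl/fl minus +/fl response, log2, limma adjusted p over all genes). With the slide as a block 4 of these kept the call and 6 lost it. With that block and without LPS fl/fl replicate 2, 3 kept it and 7 lost it. With the mean over probes 4 kept it and 6 lost it, and with the replicate block 5 kept it and 5 lost it. Higher in fl/fl cells were Tsga13 by 7.15 (adjusted p 0.043), Plaur by 3.55 (adjusted p 0.0115), L20961 by 3.17 (adjusted p 0.00271), Tlr3 by 3.09 (adjusted p 0.0113) and ENSMUST00000095369 by 2.77 (adjusted p 0.0108). Tsga13, a testis-specific gene, fell by 6.65 in +/fl cells and was above background on 1 of 6 fl/fl arrays, LPS replicate 2, so its fl/fl response has no level to start from. L20961 and ENSMUST00000095369 are probes for immunoglobulin heavy chain variable regions, which many rearranged genes can share: both rose in fl/fl cells (by 1.94 and 1.70) and fell in +/fl cells (by 1.23 and 1.06).

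Lower in fl/fl than in +/fl cells were the responses of Jhy, −7.76 (adjusted p 0.0345), Psd3, an exchange factor for ARF6, −3.03 (adjusted p 0.0345), Atp10d, −1.79 (adjusted p 0.00271), 1810055G02Rik, −1.16 (adjusted p 0.0345), and Ubxn7, a cofactor of the ATPase p97, −0.94 (adjusted p 0.0224). Jhy was above background on no +/fl array, so its +/fl response has no measured level and the size of its difference cannot be read. Psd3 fell in both genotypes, from 1.12, 2.12 and 2.36 to −3.44, −2.92 and −3.40 in fl/fl cells and from −0.77, −0.28 and −0.52 to −2.68, −2.73 and −2.43 in +/fl cells. 1810055G02Rik rose by 0.71 in fl/fl and 1.87 in +/fl cells. Ubxn7 rose in +/fl cells, from 0.19, 0.03 and 0.17 to 1.23, 1.29 and 1.30, and had a difference of 0.21 in fl/fl cells (adjusted p 0.0509).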

How the results depend on the processing

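Of 242 named genes called in the fl/fl response, 208 were called in every alternative that tested them and 34 lost the call in at least 1. The filter on all 6 fl/fl arrays and that on all 3 arrays of 1 group left some named genes untested. Among named genes called in the fit described above or in the alternative, 2 had values that reversed. Ticam2 was −0.13 with normexp correction. Tsga13, which was not called (0.51), was −0.62 with normexp correction and −0.64 with the slide as a block without LPS fl/fl replicate 2. It was −0.65 without that array and −0.65 with the filter also set without it. Leaving out each array gave −0.65 to 1.24 for Tsga13. Sign changes of genes called in neither fit were not counted. The count of fl/fl calls moved by over 1.5 times only with scaling by the array median (5983 genes), and ran from 8726 to 9572 when each array was left out in turn; the +/fl count then ran from 8956 to 10273. The count of differences between the responses, 30 genes, was 97 with normexp correction, 10 with scaling by the array median, 8 without a filter, 100 with a filter on all 6 fl/fl arrays, 71 with one on all 3 arrays of 1 group, 7 with the slide as a block, 4 with that block and without LPS fl/fl replicate 2, 9 with the replicate block, 412 with trend and robust, 323 with array weights, 7 with the mean over probes, 5 at an adjusted p of 0.01 and 56 with deposited values without that array. Leaving out each array gave 8 to 142; it was 8 without LPS +/fl replicate 1, 142 without resting +/fl replicate 2, and 10 to 18 without resting fl/fl replicate 2 or 3, resting +/fl replicate 3, LPS fl/fl replicate 3 or LPS +/fl replicate 2 or 3. The cause was not tested.

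With the replicate block the fl/fl response gave 9143 calls and the +/fl response 9503. List medians kept their sign in all alternatives except those of the LPS receptor (0.05 with the mean over probes), NF-kB (−0.23 to −0.01 in 7 alternatives), mitosis (−0.57 to −0.05 in 9), G1 genes (−0.03 with normexp correction), germinal centre (−0.12) and feedback genes (−0.10) with scaling by the array median, the latter also −0.00 without resting replicate 2, and the monocyte, T cell and B precursor markers. Signal over background limits dim genes: 490 genes that rose had no resting array above background, so only lower bounds of their folds were available.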
